A study of Mus musculus with 17 samples.

Results

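AP-1 is a transcription factor made of pairs of leucine zipper proteins, and the 8 genes described here encode its Fos subunits (Fos, Fosb, Fosl1, Fosl2), its Jun subunits (Jun, Junb, Jund) and Atf3, a relative that pairs with Jun proteins. They were taken by gene name from a table of RNA polymerase II (Pol II) ChIP-seq signal, in which all 8 were found among 36172 genes. The study depleted RPAP1, a protein that associates with Pol II, in primary fibroblasts from C57Bl/6 mouse embryos. Cells of both groups were infected with lentivirus, kept in puromycin, grown in medium with fetal calf serum and harvested at day 3. The control group received a non-targeting hairpin (SCR) and the knockdown group 1 hairpin against Rpap1 (shRPAP1 #5). Chromatin of 3 lines was pooled, and 1 library per group was made with an antibody to total Pol II and 1 with an antibody to the polymerase carrying phosphate on serine 5 of its tail (Ser5P), a form found early in transcription. The free text of both shRPAP1 samples names the control, whereas the knockdown is named by title, treatment and hairpin, which were followed here. The 12 RNA-seq samples and the input chromatin of the series are not analysed here.

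Fos and Jun proteins bind DNA as dimers, Jun with itself or with a Fos protein and Fos only with a partner, at a short palindrome known as the TRE, while dimers with ATF proteins prefer the related CRE. Fos, Fosb, Jun, Junb and Atf3 are immediate early genes, whose transcription starts within minutes of serum, growth factors or stress without new protein synthesis. Fosl1 and Fosl2 (Fra-1 and Fra-2) are induced later and stay longer, and Jund is made at a steadier level and restrains growth in fibroblasts. In mesenchymal cells AP-1 drives proliferation, matrix remodelling and wound responses.

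The stretches before the start sites are shown because they differ in the sites through which AP-1 and ATF proteins are known to act on their own genes. Where the window of the promoter signal lies around the start is not given. The printed bases may therefore lie partly or wholly outside the window in which Pol II was measured. RefSeq promoter sequence (GRCm38.p6) was found for 7 of the 8 genes, all but Fosl1. The 120 bases before the start site of each promoter record are given on the strand of the gene. CRE cores (TGACGT on either strand), the TRE-like site of Jun (TGACATCA) and TATA boxes (TATAAA) are in capitals. For Fosb the record uses a start downstream of the gene annotation, which begins at 19310118 on the minus strand. The part of its stretch at lower coordinates therefore lies inside the annotated gene.
Fos, chr12:85473770-85473889, plus strand: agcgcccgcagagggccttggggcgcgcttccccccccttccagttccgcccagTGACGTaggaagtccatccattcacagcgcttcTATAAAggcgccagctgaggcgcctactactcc
Fosb, chr7:19310046-19310165, minus strand: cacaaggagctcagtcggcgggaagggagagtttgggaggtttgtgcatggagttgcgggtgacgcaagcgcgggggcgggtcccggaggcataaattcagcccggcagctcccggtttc
Fosl2, chr5:32136352-32136471, plus strand: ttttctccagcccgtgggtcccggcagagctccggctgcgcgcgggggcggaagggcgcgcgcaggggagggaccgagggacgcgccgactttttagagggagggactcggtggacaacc
Jun, chr4:95052223-95052342, minus strand: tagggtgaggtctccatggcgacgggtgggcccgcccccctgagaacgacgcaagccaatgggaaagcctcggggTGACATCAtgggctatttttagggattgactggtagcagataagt
Junb, chr8:84978749-84978868, minus strand: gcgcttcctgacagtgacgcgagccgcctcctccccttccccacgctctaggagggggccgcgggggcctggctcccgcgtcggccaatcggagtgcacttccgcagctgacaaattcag
Jund, chr8:70697619-70697738, plus strand: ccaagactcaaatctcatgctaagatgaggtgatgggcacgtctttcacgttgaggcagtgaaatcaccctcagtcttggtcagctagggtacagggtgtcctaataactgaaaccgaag
Atf3, chr1:191183334-191183453, minus strand: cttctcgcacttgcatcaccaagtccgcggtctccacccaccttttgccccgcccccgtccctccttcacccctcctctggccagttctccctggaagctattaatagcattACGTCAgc

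Motifs were searched on both strands of the whole 300-base promoter windows, 250 bases before to 50 after the start, and positions are counted from the start site as 1. The CRE core TGACGT was present in 2 of the 7 genes, at -66 to -61 in Fos and, on the opposite strand, at -8 to -3 in Atf3. Of all 32851 RefSeq promoters 7.51% held it. TGACATCA lay at -45 to -38 in Jun and in 3.62% of all promoters. TATAAA was found at -33 to -28 in Fos and at 1 to 6 in Junb, just outside the printed stretch, and in 13.6% of all promoters. GENCODE M21 starts Junb 30 bases downstream of RefSeq, at 84978718, so the TATAAA of Junb lies upstream of that start. The perfect TRE TGACTCA (5.20% of all promoters) and the CArG box bound by SRF (1.63%) were in none of the 7 windows, which do not reach far upstream. The matches of these motifs did not overlap one another.

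Each value is a coverage per length, at the promoter or over the gene body, so levels can be set side by side between genes. At a promoter 1 read was worth 28.8, and 0.72 stood for no coverage. Measured, for a given antibody, means above the 95th percentile of 1573 olfactory and vomeronasal receptor genes, which fibroblasts do not use, in either or both of the 2 libraries. Promoter signal over all genes was worth 71277 to 290756 reads per library, and the receptor genes held more in the shRPAP1 libraries (mean gene body signal 11.9 against 6.58 with total Pol II, and 9.596 against 5.43 with Ser5P). Fibroblast markers were measured over the gene body for 9 of 10 genes with total Pol II and 10 of 10 with Ser5P. No epithelial, endothelial or skeletal muscle marker was measured there, but 4 of 6 macrophage and leukocyte markers were with total Pol II, with summed signals of 428 (SCR) and 264 (shRPAP1). Cd68, a lysosomal protein of macrophages, accounted for 259.8 and 108 of it, while Ptprc, the pan-leukocyte CD45, stayed below the percentile. The others measured were Cd14 (69.4 and 64.7), Csf1r (34.1 and 12.7) and Emr1 (27.4 and 34.9, higher in shRPAP1). With Ser5P 5 of these 6 markers were measured. Of 5 neural markers Nes and Tubb3, and of 5 embryonic stem cell markers Dppa3, were measured with Ser5P. The part of such cells in the results was not tested, and fewer cells of a type cannot be told apart from less Pol II per cell. The body of Rpap1 itself held 14.3 in both libraries with total Pol II, and 25.9 (SCR) and 20.4 (shRPAP1) with Ser5P, while its promoter held 211 (SCR) and 325 (shRPAP1) with total Pol II but 886 and 540.9 with Ser5P. This is no check of depletion, since a hairpin acts on the mRNA.

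Summed over the 8 genes, Pol II was lower in the shRPAP1 than in the SCR library with both antibodies and in both regions, as it was at the median measured gene. Summed promoter signal of the family was 2.58-fold lower with total Pol II (5773 in SCR and 2240 in shRPAP1) and was lower with Ser5P too (12966 and 5814, log2 ratio -1.16). Summed gene body signal was 2.08-fold lower with total Pol II (1624 and 780) and 2.33-fold lower with Ser5P (4020 and 1724). No measured member was at least 1.5-fold higher in any of the 4 comparisons, where 7.38% (total Pol II) and 11.7% (Ser5P) of all measured genes were at promoters and 8.73% and 8.54% over bodies. With the median ratio of measured genes set to 1, 1 member was, Fosl1 at its promoter with Ser5P (log2 ratio 0.64). With 1 library per group there is no replicate check and no test between the conditions, and intervals given below are exact 95% Clopper-Pearson intervals that cover counting error only.

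**Figure D1:**
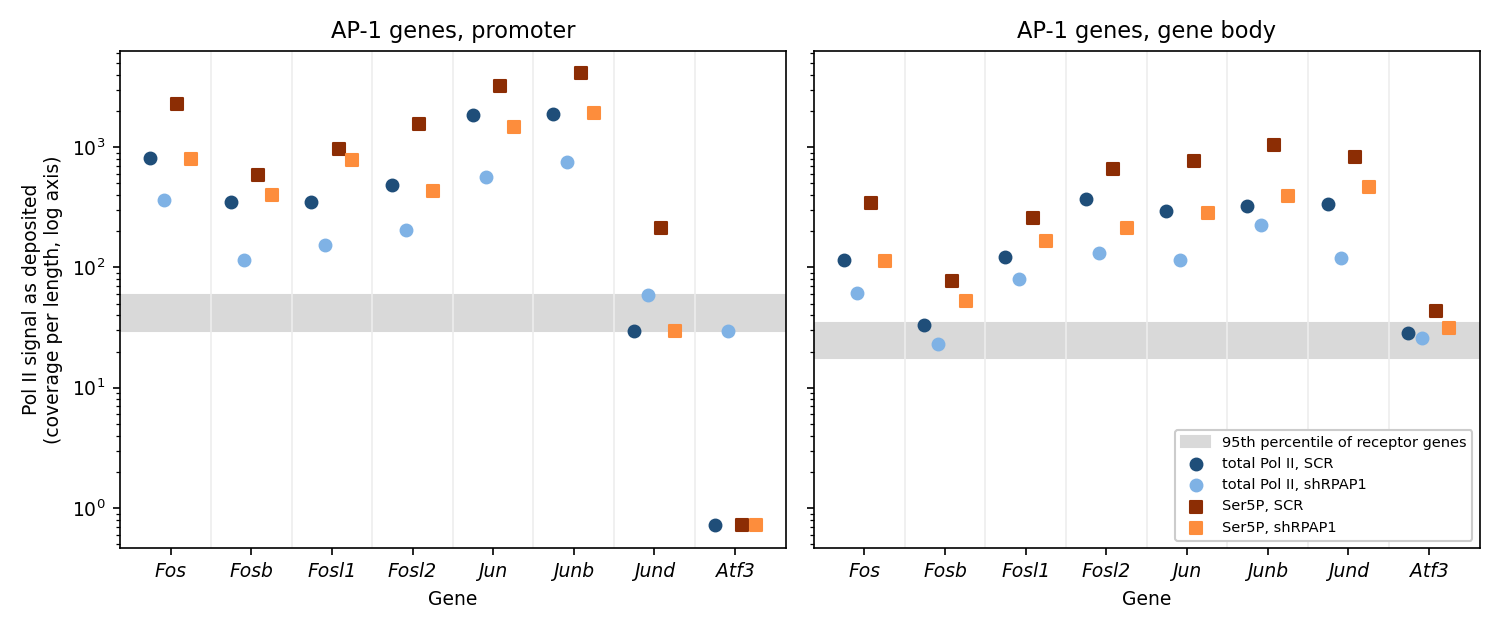
Pol II signal of the 8 AP-1 genes as deposited (coverage per length, log axis) at the promoter (left) and over the gene body (right); circles are total Pol II and squares Ser5P, dark for SCR and light for shRPAP1, 1 library each. The grey band spans the 95th percentiles of receptor genes in the 4 libraries; Atf3 lies below it at the promoter with 1 exception at its lower edge, Jund lies in or at it there apart from Ser5P in SCR (212), and Jun and Junb have the highest promoter values.

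Jun, the founding Jun subunit (chromosome 4, 95049036 to 95052222, minus strand), had among the highest promoter occupancy of all genes. Its promoter held 1865 with total Pol II in SCR, rank 64 of 36172 genes, and 562 in shRPAP1. The difference was 3.32-fold (log2 ratio -1.73, interval -2.59 to -1.02). With Ser5P the Jun promoter held 3240 and 1472 (log2 ratio -1.14, -1.64 to -0.64). Its gene body held 292 and 115 with total Pol II (-1.33, -1.94 to -0.75), and 761 and 284 with Ser5P (-1.42, -1.79 to -1.06). All 4 intervals lay below 0, and those of the gene body also lay below the median of all measured genes.

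Junb, a subunit that can oppose Jun (chromosome 8, 84976909 to 84978748, minus strand), stood beside Jun at the top of the family. Its promoter held 1876 and 757 with total Pol II (-1.31, -2.04 to -0.65), and 4099 and 1916 with Ser5P (-1.10, -1.55 to -0.67). Over its short body the antibodies gave different sizes. Total Pol II was 323 and 223 (-0.53, -1.19 to 0.11), a difference not detectable at this depth, whereas Ser5P was 1046 and 395 (-1.40, -1.84 to -0.98).

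Jund (chromosome 8, 70697739 to 70700616, plus strand) had few reads at its annotated promoter but a well occupied body, which with total Pol II in SCR did not differ from those of Fosl2 and Junb beyond counting error. With total Pol II the body held 337 and 119 (-1.496, -2.14 to -0.91), and with Ser5P 830.03 and 468 (-0.83, -1.16 to -0.51). The promoter held 29.6 and 58.4 with total Pol II, about 1 and 2 reads, and 212 and 29.6 with Ser5P, about 7 and 1 reads. The annotations differ on where Jund starts: RefSeq puts it at 70697739 and GENCODE M21 1210 bases downstream, at 70698949. The 120 bases before the RefSeq start, printed above, hold 3 CpG and 48.3% G and C, and those before the GENCODE start 19 CpG and 71.7%.

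Fos, the prototype immediate early gene (chromosome 12, 85473890 to 85477274, plus strand), came next after Jun and Junb at the promoter. Total Pol II there was 818 in SCR and 360 in shRPAP1 (-1.18, -2.33 to -0.20), and Ser5P 2292 and 789.7 (-1.54, -2.24 to -0.90). Over the body of Fos total Pol II was 115 and 61.6 (-0.90, -1.75 to -0.07), and Ser5P 345 and 114 (-1.60, -2.18 to -1.05). The Ser5P difference over the body was 3.03-fold, and 9.19% of all measured genes had a lower ratio there.

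Fosl2 (chromosome 5, 32136472 to 32157840, plus strand) gave the most precise values, since its body is the longest of the family and held about 823 reads with total Pol II in SCR. With total Pol II its body held 373 (SCR) and 132 (shRPAP1), a 2.83-fold difference (log2 ratio -1.498, interval -1.70 to -1.31), and 660 and 214 with Ser5P (3.07-fold, -1.62, -1.77 to -1.47). With total Pol II, 9.09% of all measured genes had a lower ratio. At the promoter, total Pol II was 488 and 203 (-1.26, -2.79 to 0.06) and Ser5P 1560 and 428 (-1.86, -2.78 to -1.002).

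Fosl1 (chromosome 19, 5447698 to 5455938, plus strand), a subunit that lacks the transactivation domain of Fos, had smaller body differences than Fosl2. Its body held 122 and 79.5 with total Pol II (-0.62, -1.10 to -0.17), and 257 and 165 with Ser5P (-0.64, -0.96 to -0.33). At the promoter total Pol II was 349.8 and 154 (-1.18, -3.12 to 0.35), about 12 and 5 reads, and Ser5P was 971 and 776 (-0.32, -1.12 to 0.44). The Fosl1 annotation overlaps that of Ccdc85b, and without strand their reads cannot be told apart there. The body of Ccdc85b held 125 and 31.8 with total Pol II, a larger difference than that of Fosl1.

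Fosb (chromosome 7, 19302696 to 19310118, minus strand), which in neurons accumulates as a stable short form, had a promoter like that of Fosl1 and a sparsely occupied body. Its promoter held 347 and 116 with total Pol II (-1.57, -3.67 to 0.14) and 591 and 402 with Ser5P (-0.56, -1.61 to 0.54). Its body held 33.3 and 23.1 with total Pol II (-0.52, -1.54 to 0.39), and 77.3 and 52.9 with Ser5P (-0.54, -1.197 to 0.04). No difference at Fosb was detectable at this depth.

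Atf3, a stress-induced member of the ATF family that mostly represses transcription (chromosome 1, 191170296 to 191183333, minus strand), had no promoter coverage in 3 of the 4 libraries. The fourth, total Pol II in shRPAP1, held 29.6, or 1 read. The Atf3 body held 28.7 and 25.8 with total Pol II, where the 95th percentiles of the receptor genes were 25.2 and 34.5, and 43.8 and 31.1 with Ser5P, where they were 17.6 and 30.99. The log2 ratios were -0.15 (-0.87 to 0.55) and -0.49 (-1.11 to 0.10). GENCODE lists a second Atf3 transcript with its start upstream at 191218039.

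In the order of levels at the promoter with total Pol II in SCR, Junb and Jun did not differ from each other, and Jun exceeded Fos. From Fos through Fosl2 and Fosl1 to Fosb no step was beyond counting error, and the step from Fosb to Jund was. Over the body with total Pol II in SCR, no step from Fosl2 through Jund and Junb to Jun (372.8 to 292) was beyond counting error. Only adjacent members were compared, so Fosl2 and Jun were not set against each other. Fosl1 and Fos came next (122 and 115), and Fosb and Atf3 were lowest (33.3 and 28.7). In shRPAP1 Junb stood above Fosl2 there (223 against 132), beyond counting error. Ser5P in SCR resolved more steps: at the promoter Jun exceeded Fos, Fos exceeded Fosl2 and Fosl2 exceeded Fosl1, and over the body Junb exceeded Jund, Fosl2 exceeded Fos, Fos exceeded Fosl1, Fosl1 exceeded Fosb and Fosb exceeded Atf3.

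The members' counts were read against those of all measured genes and of the 10% of genes with the most signal, the latter ranked in SCR with the other antibody. With total Pol II, promoter signal was at least 1.5-fold lower in shRPAP1 for 6 of 6 measured members, against 69.2% of all measured genes and 79.3% of the 10% most occupied. Of these 6, Fos, Jun and Junb had an interval below 0, and those of Fosb, Fosl1 and Fosl2 held 0. For Ser5P at promoters it was 5 of 7, against 68.5% and 85.8%, and 1 of the 5 is Jund, with about 7 and 1 reads. The Jund promoter counted as measured through SCR alone (29.6 in shRPAP1, where the percentile was 36.1). Its interval held 0 (-8.30 to 0.15). Over gene bodies with total Pol II the count was 5 of 8, against 46.8% and 76.6%, and with Ser5P 6 of 8, against 56.3% and 85.8%. With the median ratio of measured genes set to 1, since how the libraries were scaled is not stated, these 4 counts were 1, 2, 3 and 4, against 30.6%, 23.8%, 15.96% and 16.7% of all measured genes. Without that scaling, and apart from the 6 promoters with total Pol II, the shares of members lay between those of all measured genes and of the 10% most occupied. The median log2 ratio of measured members was -1.29 and -1.14 at promoters with total Pol II and Ser5P, beside -1.07 and -0.97 over all measured genes. Over bodies it was -0.76 and -1.11, beside -0.55 and -0.68. In the 10% most occupied the body medians were -0.90 and -1.03. Relative to the median of all measured genes over bodies, the log2 ratio of Fosl2 stood at -0.95 with total Pol II and -0.94 with Ser5P, and that of Jun at -0.79 and -0.74. Fosl1, at -0.07 and 0.04, did not depart from that median beyond counting error with either antibody.

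**Figure D2:**
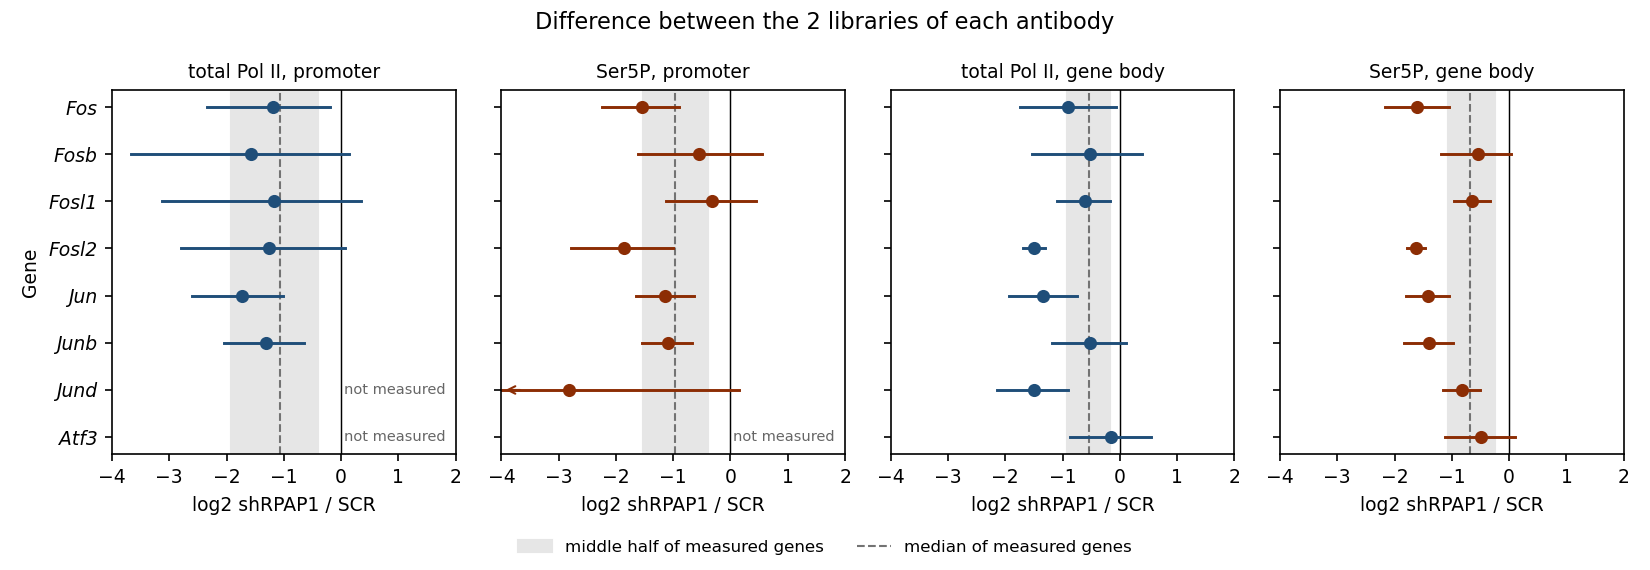
Log2 ratio of shRPAP1 over SCR for each AP-1 gene by antibody and region; bars are exact 95% counting intervals (an arrow marks 1 that runs past the axis), the dashed line is the median and the grey band the middle 50% of all measured genes. Fosl2 and Jun lie left of the median over the gene body with both antibodies, while Fosb, Fosl1 and Atf3 lie close to or right of it.

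How the reads were shared within the family does not depend on a scaling of each library by 1 factor. Read shares are not corrected for length, and the Fosl2 body is the longest of the family. Per length, Fosl2 held 23.0% of the summed body signal of total Pol II in SCR. Jund held 20.8%, Junb 19.9% and Jun 18.0%. In shRPAP1 Fosl2 held 16.9% per length, less than Junb (28.6%). For Ser5P the Fosl2 part per length was 16.4% in SCR, but 12.4% in shRPAP1. The shares given next are of reads, except where per length is stated. Over gene bodies Fosl2 held 65.5% of the family's total Pol II reads in SCR (62.8 to 68.2%) and 54.8% in shRPAP1 (50.5 to 59.1%), and with Ser5P 57.8% (55.8 to 59.7%) and 47.2% (44.03 to 50.3%). The share of Fosl1 was 8.12% (6.67 to 9.77%) and 12.4% (9.74 to 15.5%) with total Pol II, and 8.49% (7.43 to 9.65%) and 13.7% (11.6 to 15.9%) with Ser5P. The share of Jund was 8.89% (7.80 to 10.06%) and 12.6% (10.6 to 14.8%) with Ser5P, but 7.25% and 6.03% with total Pol II. The intervals of the read shares in the 2 libraries did not overlap for Fosl2 with both antibodies, for Fosl1 and Jund with Ser5P, and for Atf3 with total Pol II (3.03 and 6.40%). The shares of a library are parts of 1 whole, so a smaller share of Fosl2 makes those of the others larger. Relative to the median of all measured genes, the body log2 ratio with Ser5P was 0.04 for Fosl1 and -0.14 for Jund. Overlap was not counted for other genes. The Atf3 body lay below the receptor percentile in shRPAP1, and its share of summed signal per length, 1.77 and 3.31%, was 1.41 and 2.03% with mean receptor background subtracted. In a pair chosen after its values were seen, the log2 ratio of Fosl1 exceeded that of Fosl2 by 0.88 with total Pol II (interval 0.36 to 1.38) and by 0.98 with Ser5P (0.62 to 1.33) over the body, and by 1.54 at the promoter with Ser5P (0.32 to 2.73).

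**Figure D3:**
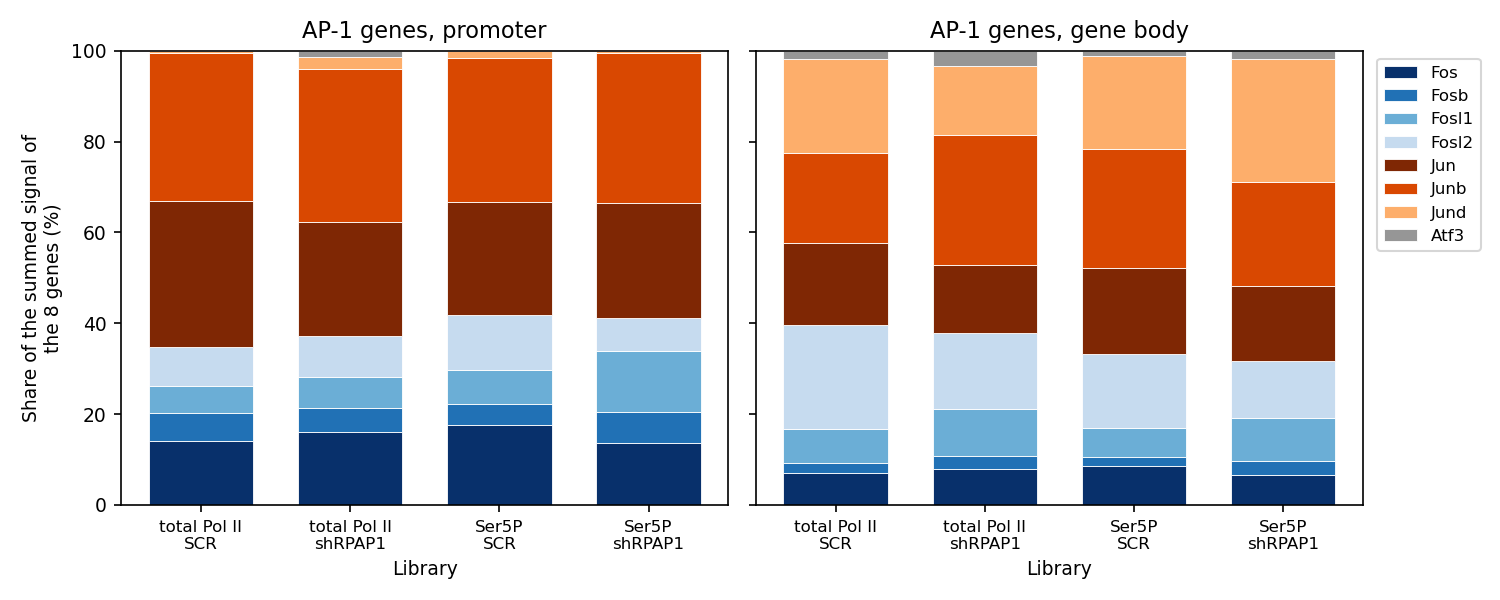
Share of each gene in the summed signal of the 8 AP-1 genes (percent, per length), for the promoter (left) and the gene body (right) in each of the 4 libraries, 1 bar per library. Jun and Junb hold most of the promoter signal in every library, and over bodies the share of Fosl2 is smaller and that of Fosl1 larger in shRPAP1 with both antibodies.

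Of all pairs of members, the intervals of the difference in ratio excluded 0 for 7 of 28 over bodies with total Pol II and 16 of 28 with Ser5P, for 0 of 28 at promoters with total Pol II and for 2 of 21 with Ser5P, where Atf3 has no reads. These intervals are not adjusted for the number of pairs, and the same share was not counted over pairs of other genes. The family's bodies held more reads with Ser5P than with total Pol II (2521 against 1256 in SCR). The body pairs whose interval excluded 0 include Atf3 against Fosl2, Jun and Jund with total Pol II, and against Fos, Fosl2, Jun and Junb with Ser5P. The pair of Jund and Junb, also chosen after its values were seen, had differences of opposite sign with the 2 antibodies, with intervals that come close to 0. With total Pol II the ratio of Junb was higher than that of Jund by 0.97 (0.07 to 1.88), and with Ser5P it was lower by 0.58 (difference -0.58, -1.12 to -0.03).

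Signal at the promoter relative to the gene body was higher at Fos, Fosb, Jun and Junb than at the Fra genes with total Pol II. No interval was made for these differences between genes, and the Fosb and Fosl1 promoters held about 12 reads each in SCR. GENCODE M21 starts both Fra genes upstream of RefSeq, Fosl2 at 32135801 and Fosl1 at 5447547, and the part of this in their ratios was not tested. With total Pol II in SCR the promoter held 10.3 times the body level at Fosb, 7.07 times at Fos, 6.39 times at Jun and 5.81 times at Junb, against a median of 3.59 over 10044 genes above background in both regions. Fosl1 stood at 2.86 and Fosl2 at 1.31, the latter above only 15.5% of genes. With Ser5P in SCR all genes had a median of 6.57, Fosb stood at 7.62, Fos at 6.63, Jun at 4.26, Junb at 3.92, Fosl1 at 3.77 and Fosl2 at 2.36. In shRPAP1 the ratio with total Pol II was lower at 5 of these 6 genes, Fosl2 being the exception, as was the median of all genes (2.79). With Ser5P it was higher in shRPAP1 at Fos (6.93), Fosl1 (4.71), Jun (5.17) and Junb (4.85) and lower at Fosb (7.56) and Fosl2 (1.998), while the median of all genes was 5.02. For all of them the interval of the difference between shRPAP1 and SCR held 0, the narrowest being that of Junb with Ser5P (0.31, -0.33 to 0.92). Jund and Atf3 are left out, because their windows hold few or no reads.

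**Figure D4:**
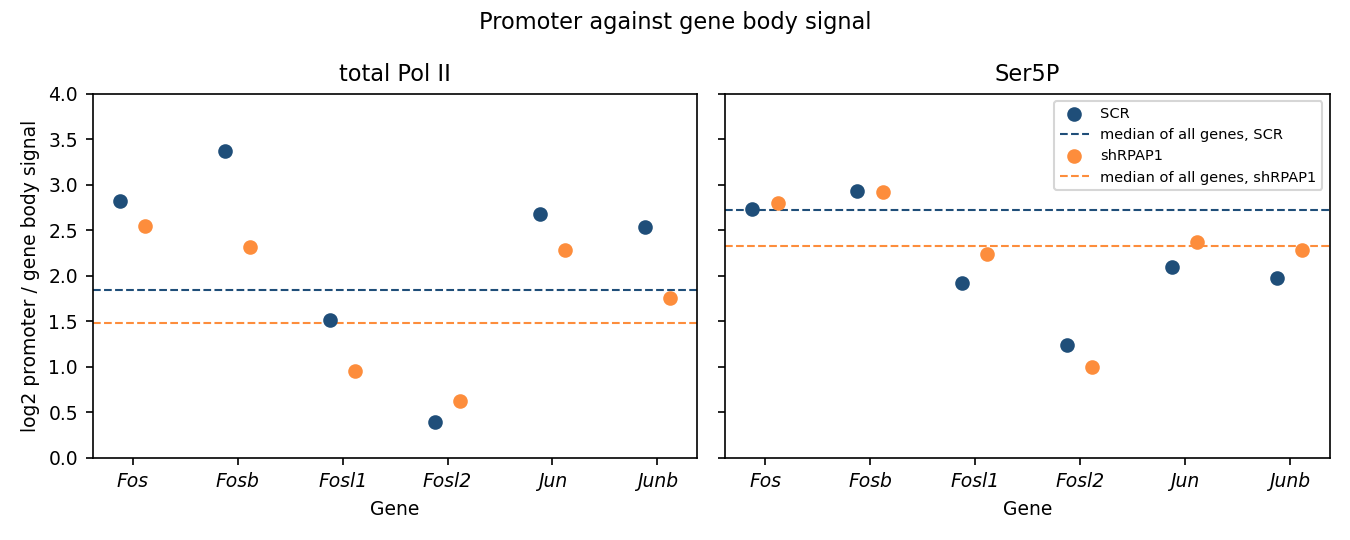
Log2 ratio of promoter over gene body signal of 6 AP-1 genes with total Pol II (left) and Ser5P (right), in SCR and shRPAP1, 1 library each; dashed lines are the medians of all genes above background in both regions. Fosl2 has the lowest ratio in each library, and Fos and Fosb are at or above the medians.

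Ser5P relative to total Pol II was high over the bodies of Junb, Fos, Jun and Jund when set against other genes, which is the only reading a ratio of 2 antibodies allows. In SCR the Ser5P signal was 3.24 times that of total Pol II at Junb, 2.99 times at Fos, 2.61 times at Jun and 2.46 times at Jund, against a median of 1.23 over 12485 genes. These 4 genes lay above 94.5 to 98.3% of all genes. The Jund body contains the GENCODE start of the gene, and the part of this in its ratio was not tested. The other members stood lower, at 2.31 (Fosb), 2.11 (Fosl1), 1.77 (Fosl2) and 1.52 (Atf3), the last above 68.8% of genes and with an interval that held equal signal. Junb, Fos, Jun and Jund are short, and short genes had a higher ratio in general, in a comparison added after seeing the data. The median of 2058 genes of at most 5000 bases was 1.56, and Junb, Fos, Jun and Jund lay above 84.3 to 94.9% of them. Lengths were known for 81.6% of the genes compared. At the promoters of the 6 genes above background with both antibodies the ratio ran from 1.70 at Fosb to 3.20 at Fosl2, around a median of 2.29 over all genes.

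In shRPAP1 the body ratio of Ser5P to total Pol II was 1.77 at Junb and 3.91 at Jund, so the order of these genes was reversed relative to SCR. At Junb the log2 ratio was lower by 0.87 with Ser5P than with total Pol II (difference -0.87, -1.65 to -0.08). This interval excluded 0 but held the median of -0.14 over 13114 genes measured with both, so Junb did not depart from that median beyond counting error. The difference at Jund was of the opposite sign (0.67, -0.01 to 1.39), and its interval held 0 but lay just above that median. These intervals are not adjusted for the number of members compared. For the other 6 members the interval held 0 too.

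The same counts were made for genes that act with AP-1. Over the body with total Pol II, 18 of 23 other leucine zipper genes were measured, 13 were past 1.5-fold in the lower direction, 0 in the higher, and the median log2 ratio was -0.69. Atf4, the effector of the integrated stress response, had the highest body signal of the list (707 and 368), and Cebpb, a factor of inflammation and fat cell differentiation, one of the 2 largest ratios (122 and 47.7, log2 ratio -1.35). Of 23 MAP kinase and SRF-ternary complex genes, which carry growth factor signals to Fos, 21 were measured and 13 lower (median -0.72). Srf, which binds the Fos promoter with its ternary complex partners, held 138 and 52.8 (-1.38).

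Among 20 genes known as AP-1 targets 14 were measured over the body with total Pol II, of which 11 were lower by that fold and 0 were higher (median -1.24). Timp1, an inhibitor of matrix metalloproteinases, held 305 and 75.9 (-2.00). With Ser5P 13 of 16 measured targets were lower (median -1.21). Among 10 Egr, Nr4a and Ier genes, which are immediate early genes like Fos, 7 of 8 measured were lower over the body with each antibody (medians -1.12 and -1.36). Egr1, the zinc finger factor induced alongside Fos, held 999 and 506 with total Pol II (-0.98), at a higher body level than any AP-1 member. By that fold, 46.8% (total Pol II) and 56.3% (Ser5P) of all measured genes were lower over bodies. Of the 10% most occupied, 76.6% and 85.8% were. The counts of the lists describe these libraries, and no list was tested against these shares.

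Neighbouring genes show how far the values of a member are its own. Junos, a transcript annotated 94 bases beyond the start of Jun, had a promoter signal of 1120 and 302 with Ser5P and 178 and 54.8 with total Pol II, and reads that fall between the 2 genes cannot be told apart by strand. Prdx2, a peroxide-reducing enzyme 2097 bases from Junb, held 841 and 450.03 at its promoter with total Pol II. Jdp2, which encodes a repressor that dimerises with Jun and is the next gene beyond Fos at 121381 bases, held 291 and 116 at its promoter with total Pol II, but with Ser5P 337 and 391. Near Atf3, Fam71a had no promoter coverage in any library.

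By the distance between log2 values over the 4 libraries and both regions, genes close to Fos among 9894 measured throughout included Ptbp1, a splicing regulator (distance 0.64), and Hspb1, a small heat shock protein (0.66). Those most like Jun were Rpl10 (0.76), Tubb5 (0.84) and Serpinh1 (0.87). Ptbp1 held 793 and 257 at its promoter with total Pol II, and 309 and 117 over its body with Ser5P. No gene was close to Atf3, whose nearest, the predicted gene Gm12737, lay at 5.28, because Atf3 itself was not measured at its promoter.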

How the data were processed

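The deposited values are a signal made by the authors, given per the file headers for the promoter and the gene body of 36230 RefSeq rows; 58 repeated rows were removed. The submitters' processing notes list MACS2 2.0.10.20130712, bedtools 2.23.0, SAMtools 0.1.16, FastQC and the mouse build GRCm38 (mm10). Aligner, promoter window, input correction and scaling: not given in the sources used here. That the values are coverage per length was inferred: each of 144688 promoter values was within 0.00585 of a whole multiple of 0.721 in every library. A read was taken as 40 bases. The lowest receptor gene values match bodies starting 300 bases after the RefSeq start and promoter windows of about 331 bases, and body reads rest on that and on RefSeq lengths.

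Ratios are log2(shRPAP1 + c) - log2(SCR + c), with c the 5th percentile of values (0.72 at promoters, 0.33 over bodies). A fold of 1.5 counted as lower or higher. Intervals of ratios of ratios are exact conditional odds ratio intervals. Steps were tested on simulated data, with Python 3.11.15, SciPy 1.17.1 and pandas 2.3.3. The members and gene lists were chosen with earlier results of these data known. The text names all members, and draws from the 2 genes of each other list with the highest body signal in SCR and the 2 with the largest ratio (total Pol II), from adjacent genes, and from the 3 genes nearest in pattern to Fos, Jun and Atf3. Alternatives were 2 scalings, background subtraction, 2 pseudocounts, 2 filters and a fold of 2. Some genes that this rule takes are not reported here.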

Additional observations from a re-analysis of the deposited data

How the results depend on the processing

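No paired analysis was possible because each group has 1 library, made from pooled lines. Leaving out a replicate was not possible for the same reason. The counts of members at least 1.5-fold lower moved with the choice of scaling. With the median ratio of measured genes set to 1, which raises the log2 ratios by 0.55 to 1.07, they were 1 of 6 and 2 of 7 at promoters with total Pol II and Ser5P, and 3 of 8 over bodies with total Pol II, against 30.6%, 23.8% and 15.96% of all measured genes. Of ratios past the fold, that of Fosl1 over its body with Ser5P then changed sign (0.039). Others within the fold turned positive too, at the promoter with Ser5P Fosb (0.41) and Fosl1 (0.64), and over the body Fosb (0.02 and 0.14), Atf3 (0.39 and 0.19) and Junb with total Pol II (0.02). With the receptor background set equal, which lowers them by 0.58 to 0.85 (shift -0.58 to -0.85), 8 of 8 bodies were lower with total Pol II (all genes 88.0%). At a fold of 2 the count was 3 of 8 there (20.6%). The remaining counts stayed within 1.5 times the main value under all alternatives listed. With background subtracted they were 7 and 8 of 8 over bodies with total Pol II and Ser5P (71.4% and 74.7%). The ratios of promoter to body moved by less than counting error. In an alternative chosen after seeing the data, background subtraction moved 30 of 32 body shares by less than counting error; with total Pol II in shRPAP1 it moved those of Atf3 (3.31 to 2.03%) and Fosb (2.96 to 1.63%) by more, and that of Fosb in SCR went from 2.05 to 1.70%, so its direction between the libraries turned. Differences at Fosb, Atf3 and the promoter of Jund are limited by depth.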
